A study of Mus musculus with 10 samples.

Results

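The *Zbtb* genes encode zinc finger and BTB domain proteins, and *Zbtb16*, the gene mutated in these mice, is a member. The family was taken as every gene of the count table whose symbol starts with Zbtb followed by a digit, 41 of 22000 genes, on 15 chromosomes. Messenger RNA from the prefrontal cortex (PFC) of 5 wild-type (WT) mice and of 5 mice labelled *Zbtb16* KO was sequenced, each mouse 7 weeks old, given as male and the source of 1 library. The KO genotype was homozygosity for *lu* (*luxoid*), a spontaneous nonsense point mutation that every cell of the body carries, on the B6.C3 background, and no treatment is named for either group. The sources used here do not say whether the WT mice were littermates. The comparison asks at what level the paralogs of *Zbtb16* are expressed in this cortex and whether any of them differed in level when *Zbtb16* was mutated.

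Proteins of this family carry a BTB domain near the N-terminus, through which they pair with each other and recruit corepressors such as SIN3 with their histone deacetylases or, in some members, the ubiquitin ligase scaffold CUL3. Zinc fingers of the C2H2 type near the C-terminus bind DNA, and most members act as repressors of transcription. *Zbtb16* (PLZF) keeps neural progenitors and germline stem cells in an undifferentiated state, and other members set cell identity in the developing cortex, in glia and in blood. Of the 41 genes, 40 encoded at least 1 C2H2 zinc finger pattern in their main transcript. The exception, *Zbtb8os*, is named for its place opposite *Zbtb8a* and encodes a cofactor of tRNA ligation, so it belongs to the family by symbol only.

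The *lu* allele turns an arginine codon of *Zbtb16* into a stop codon by a C-to-T change. The wild-type reference around this codon is shown because it places the mutation before the DNA-binding part of the protein. It is read on the minus strand of chr9:48832294-48832323 of GRCm38, with the codon, at 48832309 to 48832311, in capitals.
Zbtb16 lu codon, wild-type: gcagggggtgggCGAcaccctggggtggct
The codon lies in the coding part of exon 2 of 7 of the main transcript. All 9 of the 9 zinc fingers of the protein are encoded after it.

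Counts per library lay between 30220122 and 51231439, so that 3 counts, taken as the floor of detection, stood for 0.0586 to 0.0993 CPM (counts scaled to the library total). The RNA integrity number (RIN) was 8.1 to 9.8. KO mouse 3 had 1 count over 4 Y-linked genes against 4376 to 8182 in the other mice, which goes against its label as male. It was kept, and values without it are given for *Zbtb16*, *Zbtb7c*, *Zbtb18* and *Zbtb43*. The markers of cortical excitatory neurons summed to 1877 to 2399 CPM per mouse, and 9 markers of striatal medium spiny neurons to 306 to 602 CPM. WT mouse 5 had the highest striatal sum.

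*Zbtb16* was the only member that differed between the genotypes at an adjusted p below 0.05. Its transcript was at 84.0, 88.3, 73.9, 70.7 and 77.9 CPM in WT mice 1 to 5 and at 49.1, 50.7, 42.1, 52.8 and 42.2 CPM in KO mice 1 to 5. No value of the KO mice reached the lowest value of the WT mice, and the KO mean was 60.0% of the WT mean (47.4 ± 4.96 against 79.0 ± 7.23 CPM, SD, n = 5 each). These CPM rest on 1365 to 2184 counts per KO mouse and 2529 to 4217 counts per WT mouse, far above the floor. The log2 fold change was -0.67 (standard error 0.06, 95% interval -0.79 to -0.54), and edgeR's quasi-likelihood test gave an adjusted p of 3.42e-05, rank 2 by p among the 14344 genes tested. An exact two-sided permutation test on CPM gave p = 0.00794, the smallest that the 252 splits of 5 against 5 mice allow. Without KO mouse 3 the log2 fold change was -0.62. In bulk tissue, fewer cells of a type and less RNA per cell cannot be told apart. *Zbtb16* (ENSMUSG00000066687.5) spans 48654297 to 48836222 on the minus strand of chromosome 9 of GRCm38 and shares no exon base with another protein-coding gene of the annotation.

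Of the other 40 members, 38 passed the filter on low counts and were tested. None of them was called higher and none lower in KO mice at an adjusted p below 0.05 in edgeR's test, where 0.579% of all tested genes were called higher and 0.223% lower. At an unadjusted p below 0.05, *Zbtb7c*, *Zbtb18* and *Zbtb43* were higher and no member was lower, 3 and 0 of 38, against 5.48% and 5.08% of all tested genes. *Zbtb16* was also the only member with no overlap of CPM between KO and WT mice, which held for 1.58% of all tested genes. The log2 fold change was above 0 in 23 of the 38 and below 0 in 15, with a median of 0.024. Over all tested genes 47.8% were above 0 and the median was -0.004. Regardless of sign, the median change was 0.060 on the log2 scale in the 38 members and 0.063 in all tested genes. DESeq2, limma and the other alternatives over all 10 mice also called none of these 38 members in either direction. Leaving out single mice added 1 call, of *Zbtb7b*, when WT mouse 1 was left out.

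**Figure D1:**
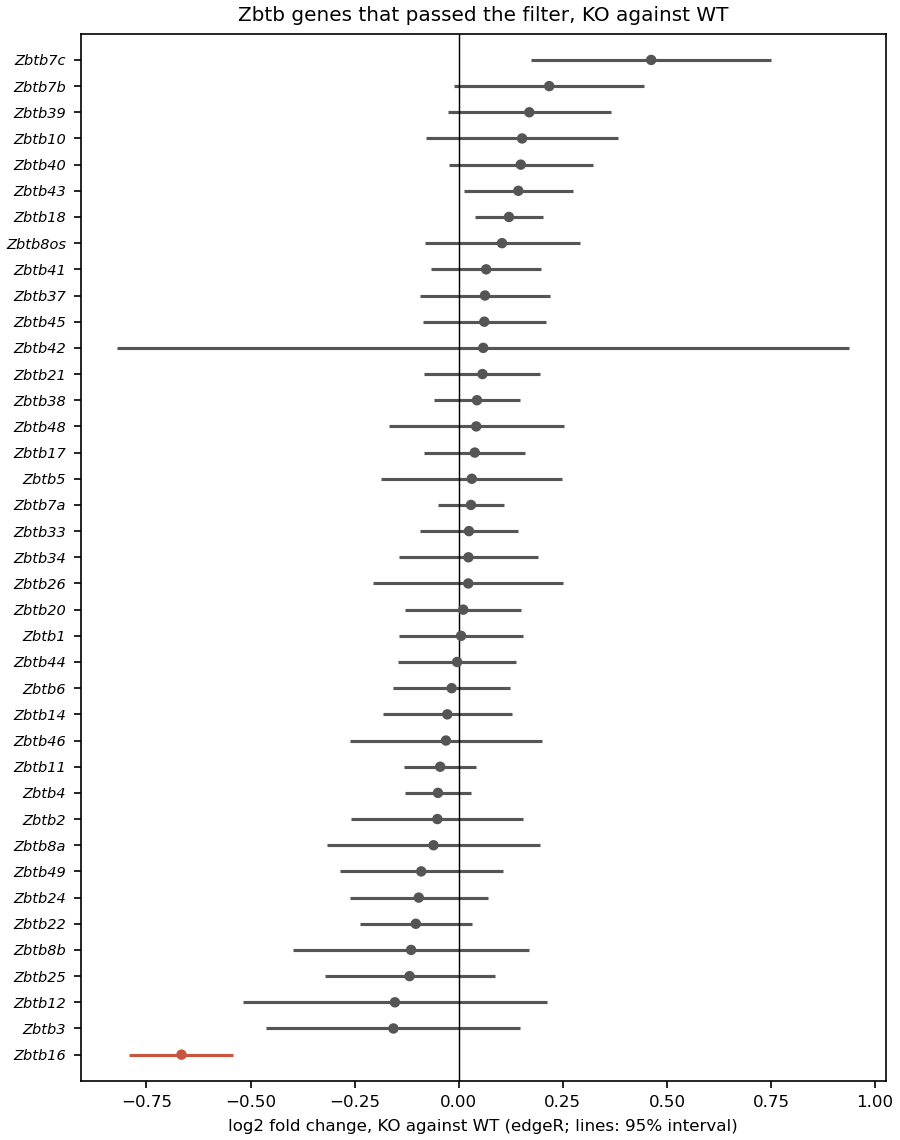
Log2 fold change of KO against WT mice (x axis) for the 39 Zbtb genes that passed the filter, 1 per row, with points for the estimate of edgeR and lines for its 95% interval (n = 5 mice per genotype). The red point at the bottom is Zbtb16 at -0.67, the only gene with an adjusted p below 0.05, and 35 of the other 38 intervals hold 0.

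Within the fit with 3 surrogate variables, the intervals limit how large a difference these mice could hide. Spread between mice that these variables absorb does not widen the intervals. *Zbtb7a*, at 206 ± 25.9 CPM in KO mice (SD, n = 5), had an interval of 0.97-fold to 1.08-fold. Without surrogate variables 30 genes were called instead of 115, and bounds for that fit are not given here. The 95% interval of the fold change, not adjusted for the number of genes, held 0 on the log2 scale in 35 of the 38 members. Its upper bound was under 1.2-fold in 30 members and under 1.5-fold in 36. The exceptions to the wider limit were *Zbtb7c* and *Zbtb42*, a gene of the neuromuscular junction and the lowest tested member, whose log2 interval ran from -0.82 to 0.94. On the lower side, the fold change was bounded above 1/1.2 in 31 members and above 1/1.5 in 37, again with *Zbtb42* as the exception. The median standard error was 0.08 on the log2 scale.

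Summed over the zinc finger members other than *Zbtb16*, the family gave a KO mean of 1566 ± 70.6 CPM and a WT mean of 1553 ± 47.8 CPM (SD, n = 5 each). The KO mice ran from 1453 to 1623 CPM and the WT mice from 1501 to 1621 CPM, so the groups overlapped. The mean difference of 12.8 CPM was smaller than either SD. *Zbtb16* itself was lower by 31.6 CPM on average (a difference of -31.6 CPM). *Zbtb18* alone was higher by 29 CPM, but its KO and WT values overlapped and edgeR's quasi-likelihood test did not call it (adjusted p = 0.209). The *Zbtb16* RNA of KO mice carries the *lu* stop codon, so its CPM do not measure functional protein. Whether *Zbtb18* makes up for *Zbtb16* was not tested. Without *Zbtb18* the sum was 1103 ± 64.9 CPM in KO mice and 1119 ± 26.9 CPM in WT mice (SD, n = 5 each), a difference of -16.3 CPM. The share of *Zbtb16* in the CPM of the family was 4.84% in WT mice and 2.94% in KO mice.

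Levels of different members were compared as CPM per kilobase of exon. The length counts the exon bases of all annotated transcripts, so a gene with many alternative exons can rank too low. *Zbtb20*, with 30.73 kb of exon, was 5th by CPM and 23rd per kilobase in WT mice. In WT mice *Zbtb18* was highest at 70.7 ± 3.71, followed by *Zbtb7a* at 31.2 ± 0.782 and *Zbtb4* at 20.5 ± 1.08 CPM per kilobase (SD, n = 5). *Zbtb16* came 4th at 14.9 ± 1.37 and *Zbtb22* 5th at 13.1 ± 1.07 CPM per kilobase (SD, n = 5). In WT mice the values of *Zbtb16*, 13.4 to 16.7, overlapped those of *Zbtb22*, 12.1 to 14.8, but not those of *Zbtb4*, 18.9 to 21.9 CPM per kilobase. *Zbtb11* and *Zbtb17* followed at 9.32 ± 0.378 and 9.16 ± 0.229 CPM per kilobase (SD, n = 5), with overlapping values.

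In KO mice *Zbtb16* stood 6th at 8.97 ± 0.938 CPM per kilobase (SD, n = 5). Its KO values, 7.97 to 10 CPM per kilobase, lay under those of *Zbtb22*, 11.8 to 13.8, and overlapped those of *Zbtb11* and *Zbtb17*. The first 3 places were the same in KO mice, with *Zbtb18* at 75.4 ± 3.10, *Zbtb7a* at 30.3 ± 3.8 and *Zbtb4* at 19.2 ± 1.42 CPM per kilobase (SD, n = 5). At the low end *Zbtb49*, *Zbtb8b* and *Zbtb42* stood at 1.12 ± 0.104, 0.889 ± 0.106 and 0.192 ± 0.0968 CPM per kilobase in WT mice (SD, n = 5). Their KO levels were 1.02 ± 0.0868, 0.789 ± 0.138 and 0.185 ± 0.0377 CPM per kilobase (SD, n = 5). In edgeR's test their log2 fold changes were -0.09, -0.11 and 0.06, with standard errors of 0.09, 0.13 and 0.41 and adjusted p of 0.808, 0.838 and 0.979. The lowest and highest WT mice for *Zbtb42* had 12 and 36 counts.

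**Figure D2:**
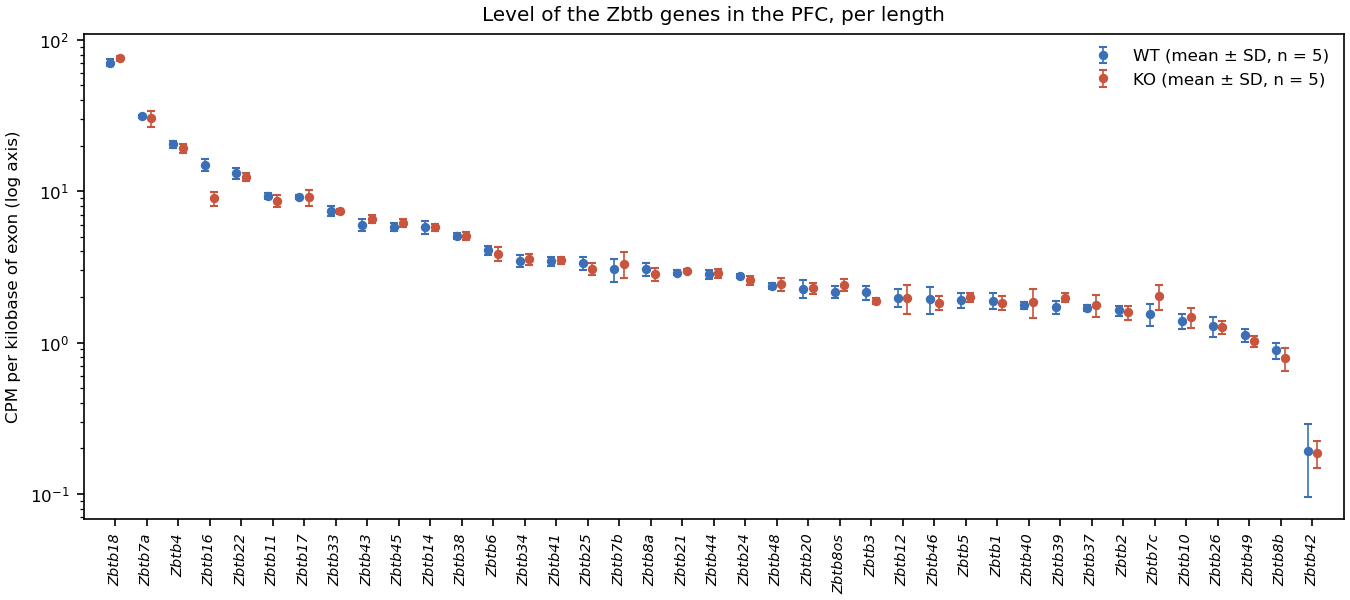
Level of the 39 tested Zbtb genes in CPM per kilobase of exon (y axis, log scale), ordered by the WT mean, with points for the mean and bars for the SD of 5 WT (blue) and 5 KO (red) mice. The levels run from 70.7 for Zbtb18 to 0.192 for Zbtb42 in WT mice, and the gap between blue and red at the 4th place is Zbtb16, at 14.9 in WT and 8.97 in KO mice.

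The remaining pair of members did not pass the filter. *Zbtb32*, a repressor of activated lymphocytes, had 1 count in all KO mice together and 1 count in all WT mice together, under the floor in every mouse. Of the 3 T cell markers, *Cd3e* and *Cd3d* had group means of at most 0.031 CPM, and *Cd4* had means of 1.25 CPM in KO and 1.26 CPM in WT mice. Their sum was 0.424 to 2.49 CPM in KO mice and 0.141 to 4.24 CPM in WT mice. *Zbtb9* had 1 to 6 counts per mouse, 15 in KO and 19 in WT mice in all. On the annotation 84.4% of its exon bases also belong to *Ggnbp1* on the same strand, and the counting mode discards reads that fit more than 1 gene, so its count is no measure of its level.

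Among the genes for cortical and glial development, *Zbtb18* (RP58), a repressor that neocortical neurons need to mature, was at 477, 430, 475, 470 and 463 CPM in KO mice 1 to 5. In WT mice 1 to 5 it was at 419, 458, 437, 453 and 404 CPM. KO mice 1, 3, 4 and 5 lay above all WT mice, and KO mouse 2 lay among them. The log2 fold change was 0.12 (standard error 0.04, 95% interval 0.04 to 0.20), and edgeR's test gave an unadjusted p of 0.00604 and an adjusted p of 0.209. Over the alternatives, leaving out mice included, it was 0.08 to 0.15. Without KO mouse 3 it was 0.12 (adjusted p = 0.424 in edgeR's test). *Zbtb20*, which marks hippocampal neurons and astrocytes, was at 70.3 ± 5.59 CPM in KO and 69.8 ± 9.56 CPM in WT mice (SD, n = 5 each), and its log2 fold change was 0.01. *Zbtb45*, a regulator of glial differentiation, had a log2 fold change of 0.06 (standard error 0.07). In this group 0 of 3 were called, against 0.579% higher and 0.223% lower of all tested genes. The median log2 fold change was 0.061.

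*Zbtb7c*, the member with the largest change upward, was the closest to *Zbtb16* by the BTB region alone. It had 3 zinc fingers against 9 in *Zbtb16*. Its translated main transcript matched the first 130 residues of the *Zbtb16* protein at 50 of 116 aligned positions (43.1%), and *Zbtb7a* and *Zbtb39* came next at 50 of 124 and 46 of 113, in the order of the alignment score. *Zbtb7c* was at 9.5, 7.7, 10.8, 12 and 7.9 CPM in KO mice 1 to 5 and at 6.8, 6.6, 6.7, 7.1 and 9.5 CPM in WT mice 1 to 5. All KO mice lay above WT mice 1 to 4, and WT mouse 5 lay inside the KO range. The means were 9.55 ± 1.84 and 7.33 ± 1.23 CPM (SD, n = 5 each). The log2 fold change was 0.46 (standard error 0.14, 95% interval 0.17 to 0.75), and edgeR's test gave an unadjusted p of 0.00366 and an adjusted p of 0.163. Without KO mouse 3 it was 0.37 (adjusted p = 0.398 in the same test), and without WT mouse 5 it was 0.56 (adjusted p = 0.0802).

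**Figure D3:**
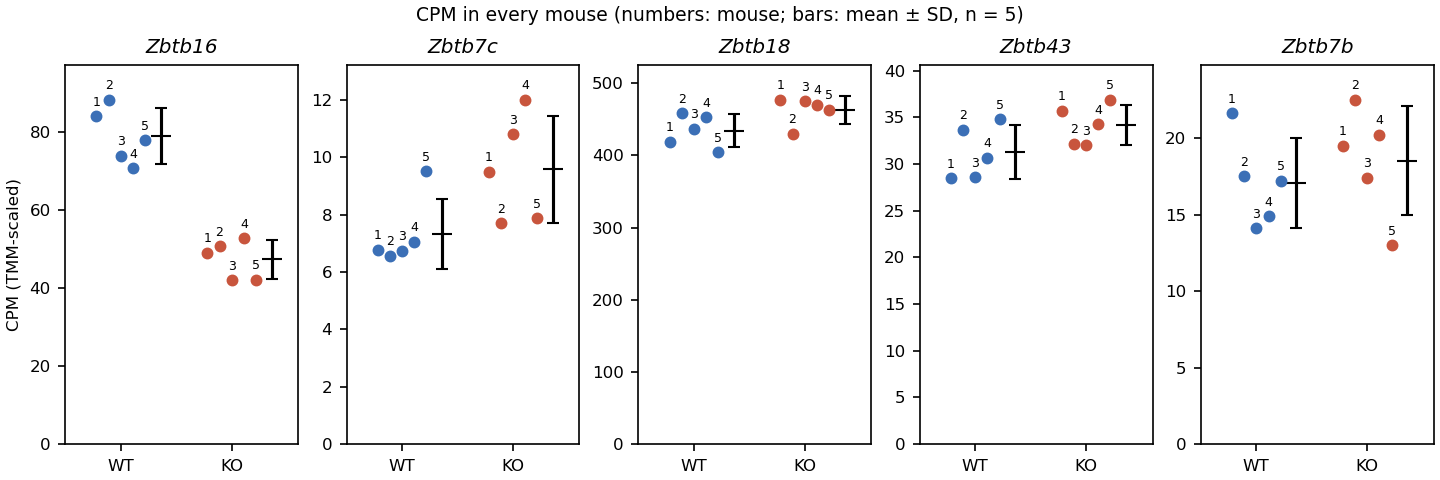
CPM (y axis, from 0) of Zbtb16, Zbtb7c, Zbtb18, Zbtb43 and Zbtb7b in each of 5 WT (blue) and 5 KO (red) mice, numbered by mouse, with black bars for the mean and SD. The KO and WT points are apart for Zbtb16 (42.1 to 52.8 against 70.7 to 88.3 CPM) and overlap for the other 4 genes.

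Markers of striatal medium spiny neurons are given beside *Zbtb7c* because their sum was also above that of WT mice 1 to 4 in every KO mouse. It was 336, 401, 394, 499 and 465 CPM in KO mice 1 to 5 and 323, 335, 306, 307 and 602 CPM in WT mice 1 to 5. WT mouse 5 was highest, with the highest WT value of *Zbtb7c* as well. Among the KO mice the orders differed. KO mice 2 and 5, at 401 and 465 CPM of the markers, had the lowest *Zbtb7c*. KO mouse 1, with the lowest sum, had 9.5 CPM of *Zbtb7c*. Of the 9 markers, 7 had a log2 fold change above 0 and 2 below, 0 were called, and none was at 0 in all mice. At an unadjusted p below 0.05, 3 were higher and 0 lower, against 5.48% and 5.08% of all tested genes. Without surrogate variables the log2 fold change of *Zbtb7c* was 0.38 (adjusted p = 0.507 in edgeR's test). With a score of the markers as covariate in their place it was 0.31 (adjusted p = 0.697 in the same test) and that of *Zbtb16* was -0.74 (adjusted p = 0.00362). The 5 interneuron markers lay below 0, with 3 at an unadjusted p below 0.05, where 5.08% of all tested genes were lower. Their sums were 702 to 793 CPM in KO and 763 to 840 CPM in WT mice. Other marker lists also lay on 1 side of 0. The 6 markers of cortical excitatory neurons and 3 of oligodendrocyte precursors lay above it. The 6 of oligodendrocytes, 3 of endothelial cells and 3 of meningeal fibroblasts lay below it. Markers of astrocytes, microglia and choroid plexus lay on both sides. Beyond the fit with the striatal score, the part of any of these markers in the values of the members was not tested.

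**Figure D4:**
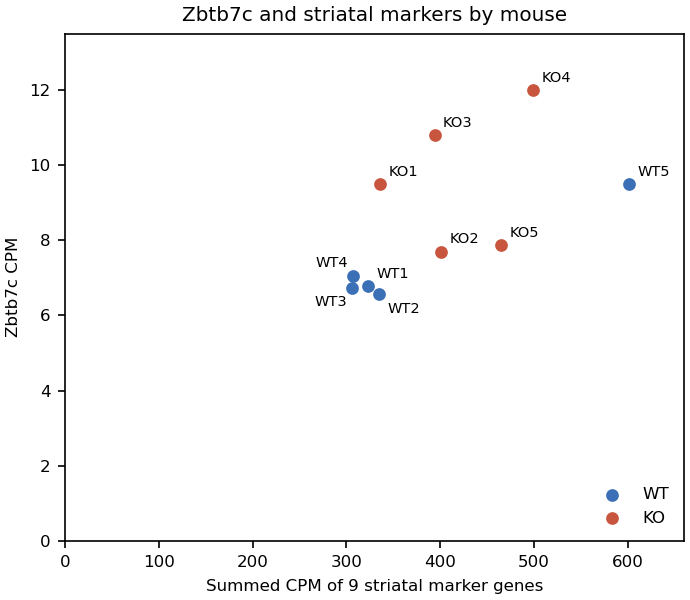
CPM of Zbtb7c (y axis) against the summed CPM of 9 striatal marker genes (x axis) in each of 10 mice, blue for WT and red for KO. WT mice 1 to 4 sit together at 306 to 335 CPM of the markers and 6.56 to 7.06 CPM of Zbtb7c, and WT mouse 5 sits apart from them at 602 and 9.5 CPM.

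The other members close to *Zbtb16* in the BTB region gave smaller differences. *Zbtb7a* (LRF), which silences fetal globin genes in red cell precursors, was at 206 ± 25.9 CPM in KO and 213 ± 5.32 CPM in WT mice (SD, n = 5 each). KO mouse 5 was at 162 CPM and the other KO mice at 205 to 224 CPM. In the fit with surrogate variables edgeR gave it a log2 fold change of 0.03 (adjusted p = 0.855, standard error 0.04), opposite in sign to the difference of the CPM means, and over the alternatives it ran from -0.05 to 0.05. *Zbtb39* was at 11.8 ± 0.836 CPM in KO and 10.2 ± 1.03 CPM in WT mice (SD, n = 5 each), a log2 fold change of 0.17 (standard error 0.09) that edgeR's test gave an adjusted p of 0.557.

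*Zbtb43* was at 35.7, 32.2, 32.0, 34.3 and 36.9 CPM in KO mice 1 to 5 and at 28.5, 33.7, 28.6, 30.7 and 34.8 CPM in WT mice 1 to 5. WT mice 2 and 5 lay inside the KO range. The log2 fold change was 0.14 (standard error 0.06, 95% interval 0.01 to 0.27), for which edgeR's test gave an unadjusted p of 0.0341 and an adjusted p of 0.416. It was 0.22 without WT mouse 5 and 0.09 with the striatal score as covariate, the ends of its range over the alternatives. Without KO mouse 3 it was 0.14 (adjusted p = 0.587 in edgeR's test). *Zbtb34*, its neighbour 19 kb away on chromosome 2, had a log2 fold change of 0.02.

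Among the genes for immune lineages, 0 of the 7 tested were called, against 0.579% higher and 0.223% lower of all tested genes. The median log2 fold change was 0.006. *Zbtb7b* (ThPOK), which directs T cells to the CD4 lineage, was at 19.5, 22.5, 17.4, 20.2 and 13.0 CPM in KO mice 1 to 5 and at 21.6, 17.5, 14.1, 14.9 and 17.2 CPM in WT mice 1 to 5. All WT values lay inside the KO range. In edgeR's test its log2 fold change was 0.22 (adjusted p = 0.498, standard error 0.11), and without WT mouse 1 it was 0.30 with an adjusted p of 0.0481. It was 0.35 without KO mouse 5, 0.15 without WT mouse 3 and 0.11 without surrogate variables, none of them called. *Zbtb17* (MIZ1), a partner of MYC, had equal means of 35.5 CPM and a log2 fold change of 0.04. *Zbtb1*, *Zbtb24*, *Zbtb25* and *Zbtb46* had log2 fold changes between -0.12 and 0.01.

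*Zbtb4*, *Zbtb33* (Kaiso) and *Zbtb38*, the members that bind methylated CpG, had log2 fold changes of -0.05, 0.02 and 0.04, with standard errors of 0.04 to 0.06 and adjusted p of 0.708, 0.933 and 0.825 in edgeR's test. *Zbtb4* was at 156 ± 11.5 CPM in KO and 167 ± 8.73 CPM in WT mice (SD, n = 5 each). *Zbtb48* (TZAP) and *Zbtb10*, which bind telomere repeats, had log2 fold changes of 0.04 and 0.15 (standard errors 0.10 and 0.11). Neither group held a member at an unadjusted p below 0.05.

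The other members outside these roles, *Zbtb8os* included and *Zbtb16* apart, gave 12 log2 fold changes above 0 and 11 below among the 23 tested, with a median of 0.023 and *Zbtb3* lowest at -0.16 (standard error 0.14). Those above 0 were *Zbtb5*, *Zbtb7c*, *Zbtb8os*, *Zbtb21*, *Zbtb26*, *Zbtb34*, *Zbtb37*, *Zbtb39*, *Zbtb40*, *Zbtb41*, *Zbtb42* and *Zbtb43*. Those below 0 were *Zbtb2*, *Zbtb3*, *Zbtb6*, *Zbtb8a*, *Zbtb8b*, *Zbtb11*, *Zbtb12*, *Zbtb14*, *Zbtb22*, *Zbtb44* and *Zbtb49*. Apart from *Zbtb7c*, *Zbtb39* and *Zbtb43*, the largest value above 0 was 0.15, of *Zbtb40*. Its CPM of 23.9, 21.3, 22.8 and 18.6 in KO mice 1 to 4 stood against 13.0 in KO mouse 5 and 16.9 to 19.7 in the WT mice.

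*Zbtb44* and *Zbtb38* lie on chromosome 9 with *Zbtb16*, at 17.6 and 47.8 Mb from it, with log2 fold changes of -0.00 and 0.04. *Zbtb1* and *Zbtb25*, which start 663 bp apart on opposite strands of chromosome 12, had log2 fold changes of 0.01 and -0.12. *Zbtb6* and *Zbtb26* on chromosome 2 share 449 exon bases and had -0.02 and 0.02. *Zbtb8os* and *Zbtb8a*, which overlap on opposite strands of chromosome 4, had 0.10 and -0.06. In all, 13 members share at least 1 exon base with another protein-coding gene, *Zbtb9* with the largest part and the others with at most 15.6%. How strand was set in the counting is not given in the sources used here, so counts in these shared stretches are uncertain.

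Single mice were at the extreme for many members at the same time. KO mouse 5, with the lowest RIN (8.1) and the deepest library, was the lowest of the 10 mice for 12 of the 38 tested members other than *Zbtb16* (31.6%) and for 18.3% of all tested genes. It was the highest for 4 of the 38 members and for 18.9% of all tested genes. WT mice 3 and 4 and KO mouse 3, with RIN of 8.2, 8.2 and 8.3, were the lowest for 3, 0 and 1 members. WT mouse 1, with the highest RIN (9.8), was the lowest for 7 members (18.4%) and for 9.33% of all tested genes. WT mouse 5 was the lowest for 6 members (15.8%) and for 6.83% of all tested genes. The median deviation of the 38 members from the 10-mouse mean ran from -0.064 in KO mouse 5 to 0.055 in WT mouse 2 on the log2 scale, a wider range than the median difference between the genotypes. The part of RIN in this was not tested beyond the fit with RIN as a covariate, which also called no member other than *Zbtb16*.

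**Figure D5:**
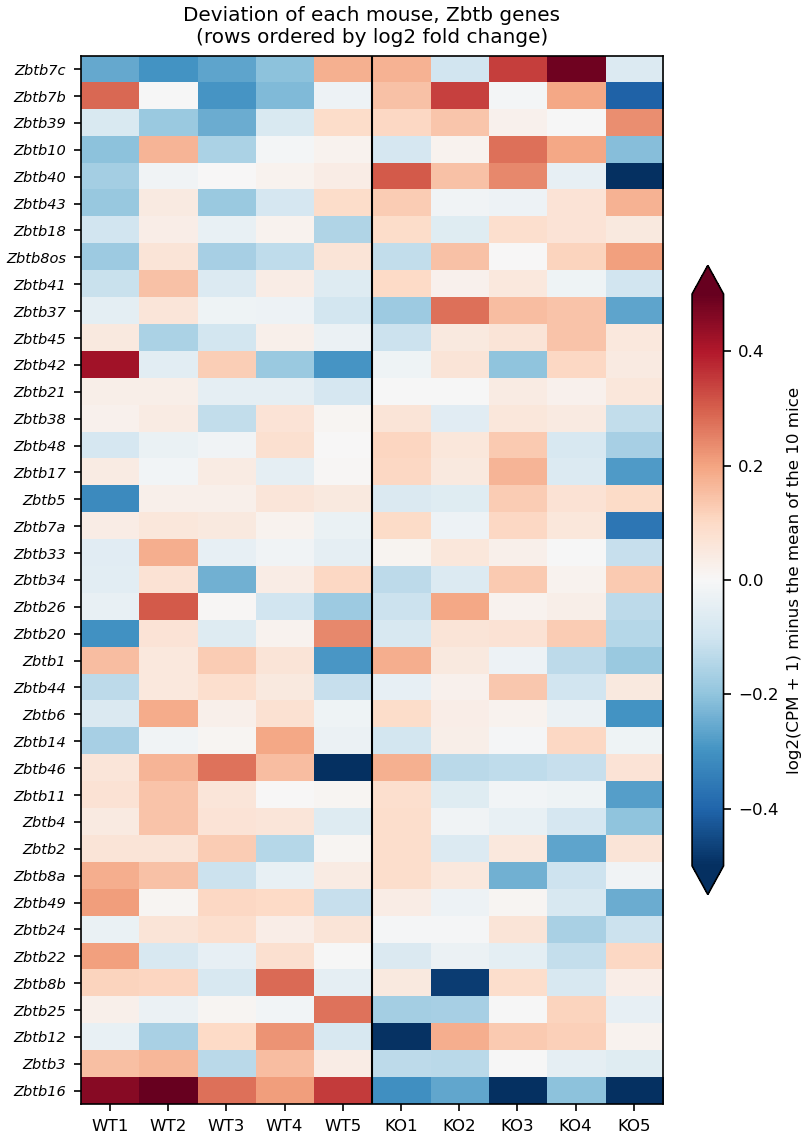
Deviation of each mouse (columns, WT then KO) from the mean of the 10 mice in log2(CPM + 1), for the 39 tested Zbtb genes (rows, by log2 fold change, colours clipped at 0.5 either way). The bottom row, Zbtb16, is red in all 5 WT and blue in all 5 KO mice, and the column of KO mouse 5 holds the lowest value of the row for 12 of the other 38 genes.

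No call was made either among the zinc finger and BTB genes that carry other symbols. Over all tested genes 0.579% were called higher and 0.223% lower. Of *Bcl6*, *Bcl6b*, *Hic1*, *Hic2*, *Patz1*, *Gzf1*, *Mynn* and *Zfp131*, 0 of 8 were called, 4 lay above 0 and 4 below, and the median log2 fold change was 0.001. *Bcl6*, which promotes neurogenesis in the cortex and B cell maturation, was at 33.4 ± 6.11 CPM in KO and 31.7 ± 2.77 CPM in WT mice (SD, n = 5 each), a log2 fold change of 0.18 that edgeR's test gave an adjusted p of 0.435.

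The genes of the proteins that BTB domains recruit gave the same count of calls, against 0.579% higher and 0.223% lower of all tested genes. Of the 11 partner genes *Ncor1*, *Sin3a*, *Sin3b*, *Hdac1*, *Hdac2*, *Hdac3*, *Hdac4*, *Bcor*, *Ctbp1*, *Cul3* and *Bmi1*, 0 were called, 5 lay above 0 and 6 below, and the median log2 fold change was -0.026. *Cul3* was at 162 ± 7.79 CPM in KO and 176 ± 6.09 CPM in WT mice (SD, n = 5 each), a log2 fold change of -0.08 for which edgeR's test gave an unadjusted p of 0.0411 and an adjusted p of 0.443. *Ctbp1*, a corepressor, had a log2 fold change of 0.09 (unadjusted p = 0.0342, adjusted p = 0.416 in the same test). The other 9 lay between -0.06 and 0.06.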

How the data were processed

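The authors aligned paired-end reads to mm10 (GRCm38) with STAR 2.7.1a, kept uniquely mapped reads and ran HTSeq 0.9.1, set to intersection-strict, on the protein-coding exons of Gencode M21. They deposited the raw counts. In edgeR 4.0.16 (R 4.3.3) the quasi-likelihood test was applied to the 14344 genes that passed filterByExpr, after TMM scaling, in a model of genotype plus 3 surrogate variables that sva 3.50.0 found on log2(CPM + 1) with seed 1, using Benjamini-Hochberg adjustment at 0.05 over all genes tested. Surrogate variables are weights per mouse, found from the counts, that stand for differences between libraries other than genotype. The largest weight was that of KO mouse 5 in the first (0.879) and of KO mouse 2 in the second (0.740). CPM are TMM-scaled. CPM per kilobase use the exon length of the gene over all its transcripts in Gencode M21, each base counted once. The BTB region was compared by local alignment (BLOSUM62, gap penalties 11 and 1) of the first 130 residues, translated from the annotation.

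The alternatives were 0, 1 or 2 surrogate variables, RIN, a striatal marker score or the replicate number as covariates, DESeq2 1.42.0, limma 3.58.1, RLE normalization, no filter, and leaving out each mouse. Intervals cover only the spread between mice left after the surrogate variables, and floors cover only counting error. No pair of libraries agreed within sampling noise. The members and lists were chosen with earlier results of these data known. Values in every mouse are given for *Zbtb16*, *Zbtb7b* and members with an adjusted or unadjusted p below 0.05 or no overlap. At least genotype means and log2 fold changes are given for the 3 highest, 3 lowest and 3 members closest to *Zbtb16* by BTB region. A further partner gene is not reported here.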

Additional observations from a re-analysis of the deposited data

Results flagged for a closer look

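In 6 of the 78 groups of 5 mice examined, 1 mouse lay far from the other 4 by Dixon's 95% criterion, and chance alone flags about 1 in 20. WT mouse 5 appears in 3 of them. *Zbtb1* was at 18.2 CPM in WT mouse 5 and at 23.4 to 25.2 CPM in the other WT mice. *Zbtb25*, the gene that starts next to it on the opposite strand, was at 12.3 CPM in WT mouse 5 and at 9.8 to 10.2 CPM in the other WT mice, so this mouse was the lowest for 1 gene of the pair and the highest for the other. *Zbtb7c* was at 9.5 CPM in WT mouse 5 and at 6.56 to 7.06 CPM in the other WT mice. *Zbtb33* was at 42.9 CPM in WT mouse 2 against 36.3 to 37.3 CPM, and *Zbtb5* at 8.54 CPM in WT mouse 1 against 11.1 to 11.4 CPM. *Zbtb12* was at 2.51 CPM in KO mouse 1 against 4 to 4.6 CPM in the other KO mice.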

How the results depend on the processing

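*Zbtb16* was called lower, and was the only member called lower, in all 20 alternatives, with log2 fold changes of -0.74 to -0.66 in the fits of all mice and -0.69 to -0.60 when each mouse was left out. The largest adjusted p of *Zbtb16* was 0.0423, from limma's moderated t test, close to the threshold. Members called higher numbered 0 in all alternatives, except that leaving out each mouse gave 0 to 1, the 1 being *Zbtb7b* without WT mouse 1. The median log2 fold change of the other tested members ran from -0.005 to 0.031, and from 0.005 to 0.041 with mice left out. The log2 ratio of their summed CPM, KO over WT, ran from 0.006 to 0.013 under other scalings and from -0.001 to 0.038 with mice left out. The number of all genes called, 115, moved to 30 without surrogate variables, 35 with 1, 57 with 2, 38 with RIN, 9 with the striatal score, 227 with DESeq2 and 8 with limma, and to 39 to 249 with mice left out (39 without WT mouse 3, 51 without KO mouse 3, 55 without KO mouse 1, 60 without WT mouse 4, 75 without WT mouse 5 and 249 without KO mouse 2). The cause was not tested. Replicate numbers join different mice, and the correlations of same-numbered mice ran from -0.106 to 0.173, over 0.1 in some pairs but not in all. With the replicate block in place of the surrogate variables, *Zbtb16* was at -0.74 and 24 genes were called. Counts of at most 6 per mouse limit *Zbtb9* and *Zbtb32*.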
